A study of Mus musculus with 2 samples.

Results

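The genes described are the 5 members of the miR-200 family (Mir200a, Mir200b, Mir200c, Mir141 and Mir429) together with Mir203 and Mir205, all known from epithelial cells. They were chosen by their GENCODE M21 gene names, and all 7 were found among the 2202 annotated miRNA genes of the tables. The data are microRNA-seq (RNA under 30 bases) of adrenal glands from female B6CASTF1/J mice, an F1 hybrid strain, at 36 days of age. The 2 libraries form 1 group with no treatment or second condition, and are labelled biological replicates 1 and 2. Their labels number the females separately, yet 1 donor identifier stands on both, so the spread between libraries may be technical rather than a spread between animals.

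Mature miRNAs guide Argonaute proteins to messenger RNAs, and bases 2 to 8, the seed, do most of the target recognition. The miR-200 family represses ZEB1 and ZEB2, transcription factors that silence E-cadherin, and these factors in turn repress the miR-200 clusters, a loop that holds cells in an epithelial or a mesenchymal state. miR-203 is best known from the upper layers of the epidermis, where it represses p63 and promotes differentiation. miR-205 is known from basal cells of stratified and glandular epithelia and shares ZEB factors as targets. The adrenal gland itself joins a cortex of mesodermal origin to a medulla that derives from the neural crest.

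The sequences of the arms known as the functional ones are shown because they divide the genes into 4 seed groups. They are from RefSeq (GRCm38.p6, the mm10 build), in which 7 of 7 genes were found with the same hairpin coordinates as in GENCODE. Each is written 5′ to 3′ with the seed in capitals.
mmu-miR-200b-3p: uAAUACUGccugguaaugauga
mmu-miR-200c-3p: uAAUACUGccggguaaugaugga
mmu-miR-429-3p: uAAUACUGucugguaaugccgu
mmu-miR-200a-3p: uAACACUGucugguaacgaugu
mmu-miR-141-3p: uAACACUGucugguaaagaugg
mmu-miR-203-3p: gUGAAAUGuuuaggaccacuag
mmu-miR-205-5p: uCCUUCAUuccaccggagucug
Mir200b, Mir200c and Mir429 share the seed AAUACUG, and Mir200a and Mir141 share AACACUG. The seeds of these groups differ by U4C (the base in miR-200b-3p, its position from the 5′ end of the mature arm, then the base in miR-200a-3p or miR-141-3p). None of the other mature miRNAs among the 1738 in the RefSeq table has any of the 4 seeds. Within the miR-200 family, the arms of Mir200a and Mir141 differ at 2 of 22 positions, those of Mir200b and Mir200c also at 2, and the other pairs at 4 or 5.

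The miR-200 genes lie in a pair of clusters, all on the minus strand. In transcription order Mir200b (chr4:156055681-156055750), Mir200a (chr4:156054896-156054985) and Mir429 (chr4:156053905-156053987) are separated by 695 and 908 bases. They lie in introns of the protein-coding gene Ttll10 and inside the noncoding gene Gm13648, where Mir429 is exonic. Mir200c (chr6:124718322-124718390) and Mir141 (chr6:124717914-124717985) are 336 bases apart in an intron of the noncoding gene Gm15884, and Mir141 lies partly in an exon of Gm29008. Mir203 (chr12:112130880-112130955, plus strand) lies in none of the annotated genes and 3320 bases beyond the end of Aspg. Mir205 (chr1:193507463-193507530, minus strand) lies in an exon of the noncoding gene 4631405K08Rik.

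Replicate 1 had 5397603 reads on the sense strand of miRNA genes and replicate 2 had 3029977, so 1 read was worth 0.185 and 0.330 CPM, the sense counts scaled to 1000000 sense miRNA counts per library. Levels below are sense CPM, with 95% Wilson intervals for single libraries and mean ± SD over both (n = 2). Intervals cover counting error only. The mature arms are 22 or 23 bases long, so CPM was not divided by the length of the hairpin. The tables count both arms of a hairpin together. They hold miRNA genes alone, so the labelled tissue could not be checked against steroidogenic genes, whereas Mir375, known from endocrine cells, stood at 28922 and 22246 CPM. Reads that mapped to several places, 28.5% and 30.6% of each library, are in no gene's count. The longest stretch that any of the 7 hairpins shares with another miRNA hairpin is 17 bases, between Mir200a and Mir141. Whether fewer cells of a type or less RNA per cell sets a level cannot be told apart in whole glands.

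Only Mir203 was abundant in these libraries, and the miR-200 family and Mir205 were low. Sense reads of Mir203 numbered 4435 and 11184, giving 822 CPM (interval 798 to 846) in the first library and 3691 CPM (3623 to 3760) in the second. Its mean of 2256 ± 2029 CPM ranked 48 among the 2202 genes, between Mir15a at 2335 ± 1807 and Mir320 at 2237 ± 709 CPM, and its SD was almost as large as its mean. Mir203 ranked 88 in replicate 1 and 42 in replicate 2. It held 94.1% (interval 93.4 to 94.7%) and 99.0% (98.8 to 99.2%) of the reads of the 7 genes.

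Mir200c led the remaining genes with 141 and 61 counts, or 26.1 CPM (22.2 to 30.8) in replicate 1, against 20.1 CPM (15.7 to 25.9) in replicate 2. The mean of 23.1 ± 4.24 CPM exceeded that of 26.5% of the 339 detected genes (10 or more counts in each library), whose median was 130 CPM. Mir200b had 77 and 14 counts, or 14.3 CPM (11.4 to 17.8) in replicate 1, against 4.62 CPM (2.75 to 7.76) in replicate 2. Mir200b was below Mir200c in each library, and their intervals did not overlap in either. Mir141 had 15 and 24 counts, or 2.78 CPM (1.68 to 4.59) in replicate 1, against 7.92 CPM (5.32 to 11.8) in replicate 2.

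Mir429, Mir200a and Mir205 did not reach 10 counts in both libraries, so 4 of the 7 genes were detected. Mir429 had 31 and 7 counts (5.74 and 2.31 CPM), and Mir200a had 7 and 8 (1.30 and 2.64 CPM). Mir205, known from basal epithelial cells, had 7 counts in replicate 1 but 1 in replicate 2, giving 1.30 CPM (0.628 to 2.68) and 0.330 CPM (0.0583 to 1.87). The order of the means was Mir203, Mir200c, Mir200b, Mir141, Mir429, Mir200a and Mir205. The first 3 were ordered alike in both libraries with separate ranges. From Mir200b down to Mir200a each neighbouring pair changed order between the libraries, and Mir200a and Mir205 were tied at 7 counts in replicate 1, so those levels could not be ranked against the spread.

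**Figure D1:**
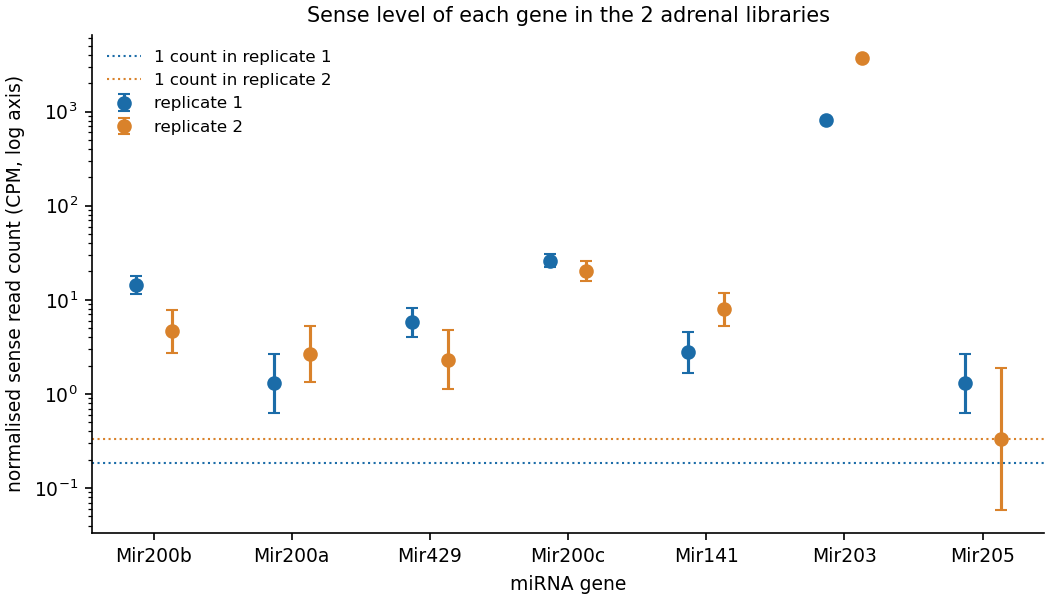
Sense CPM (log axis) of the 7 genes in replicate 1 (blue) and replicate 2 (orange). Points are single libraries, bars are 95% Wilson intervals and dotted lines mark the CPM of 1 count. Mir203 lies at 822 and 3691 CPM, while the other 6 genes lie between 0.330 and 26.1 CPM.

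The 2 libraries were compared to ask how closely the levels of these genes repeat. Ratios are given as log2 of replicate 1 over replicate 2 after TMM scaling, and counts were compared by an exact binomial test with Benjamini-Hochberg adjustment over the 434 genes with at least 10 counts in total. This test compares the libraries against counting error and not conditions. Folds are ratios of the TMM-scaled counts without the prior of 0.5 counts that the log2 ratios hold, so the measures differ slightly at low counts. It called 3 of the 6 genes tested, against a background of 58.5% of all genes. Mir200b was higher in replicate 1, where 30.2% of all genes were called, and Mir141 and Mir203 were higher in replicate 2, where 28.3% were. The share of called members is thus near the background. The median log2 ratio was -0.59 over the 6 genes and 0.075 over the 434. With total counts in place of TMM every ratio moves by 0.30 towards replicate 1, and 69.5% rather than 51.6% of all calls are higher there.

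For Mir200b the log2 ratio was 1.31, and without the prior the level was 2.50-fold higher in replicate 1 (95% exact interval 1.41 to 4.79, exact binomial test, adjusted p = 0.0014). For Mir141 it was -1.77, and without the prior the level was 3.51-fold higher in replicate 2 (1.77 to 7.20, exact binomial test, adjusted p = 0.00039). Mir200c differed by 1.05-fold (0.774 to 1.45, adjusted p = 0.82), and its sign turned to -0.075 when the trend with hairpin GC content was removed. Mir429 had a log2 ratio of 0.98 (adjusted p = 0.17 in the exact binomial test, and 0.044 with total counts). Mir200a had a log2 ratio of -1.25 (adjusted p = 0.14 in the exact binomial test). Mir205, with 8 counts in all, was not tested, and its ratio of 3.19 has an interval of 0.410 to 144. Against the pooled spread between the libraries, a coefficient of variation of 41.6% over all genes, none of the 6 was called (edgeR exact test with the common dispersion). That test called 0 of 434 genes, or 0%, with 24 at an unadjusted p under 0.05. The pooled spread was estimated from the same 2 libraries that it then compared, so the differences tested also set their own error. A lack of calls against it is therefore no independent check. The calls for Mir200b and Mir141 are calls against counting error, and neither was made against the pooled spread.

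**Figure D2:**
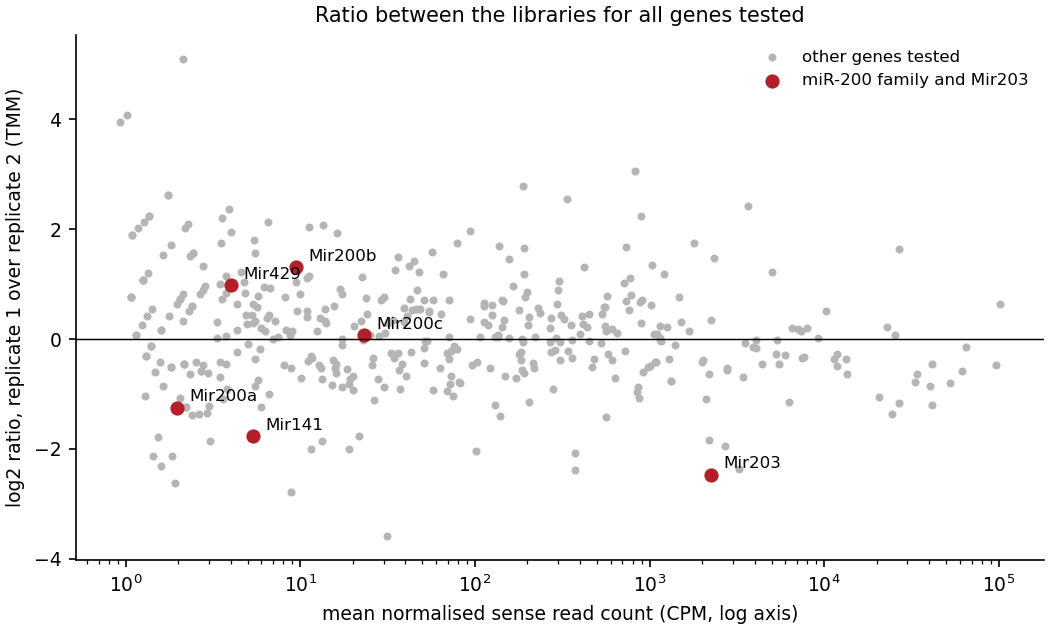
Log2 ratio of replicate 1 over replicate 2 after TMM scaling against mean sense CPM (log axis) for the 434 genes tested. Grey points are other genes and red points the 6 genes tested of the miR-200 family and Mir203. Mir203 lies at -2.47, Mir141 at -1.77 and Mir200b at 1.31.

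Clustered miRNAs are commonly cut from a shared precursor transcript, yet within each cluster the CPM values of the libraries ran in opposite directions. In the chromosome 4 cluster Mir200b and Mir429 had more CPM in replicate 1, while Mir200a had more in replicate 2. In the chromosome 6 cluster Mir200c had more CPM in replicate 1, while Mir141 had more in replicate 2. Of the 5 genes the exact binomial test called only Mir200b and Mir141, which lie in different clusters. Neither cluster thus held calls in opposite directions. Summed over the chromosome 4 cluster, the level was 21.3 CPM (17.8 to 25.6) in replicate 1, against 9.57 CPM (6.66 to 13.7) in replicate 2, a ratio of 1.81 after TMM scaling (exact interval 1.19 to 2.82). Summed over the chromosome 6 cluster, it was 28.9 CPM (24.7 to 33.8) in replicate 1, against 28.1 CPM (22.7 to 34.7) in replicate 2, a ratio of 0.836 (0.638 to 1.10), or 1.03 with total counts. The 5 genes together had 50.2 CPM (44.6 to 56.6) in replicate 1, against 37.6 CPM (31.3 to 45.2) in replicate 2, or 43.9 ± 8.90 CPM. After TMM scaling their summed ratio of 1.08 (0.867 to 1.36) was not distinguishable from 1 at this depth. With total counts the ratio was 1.33, so this reading depends on the scaling.

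**Figure D3:**
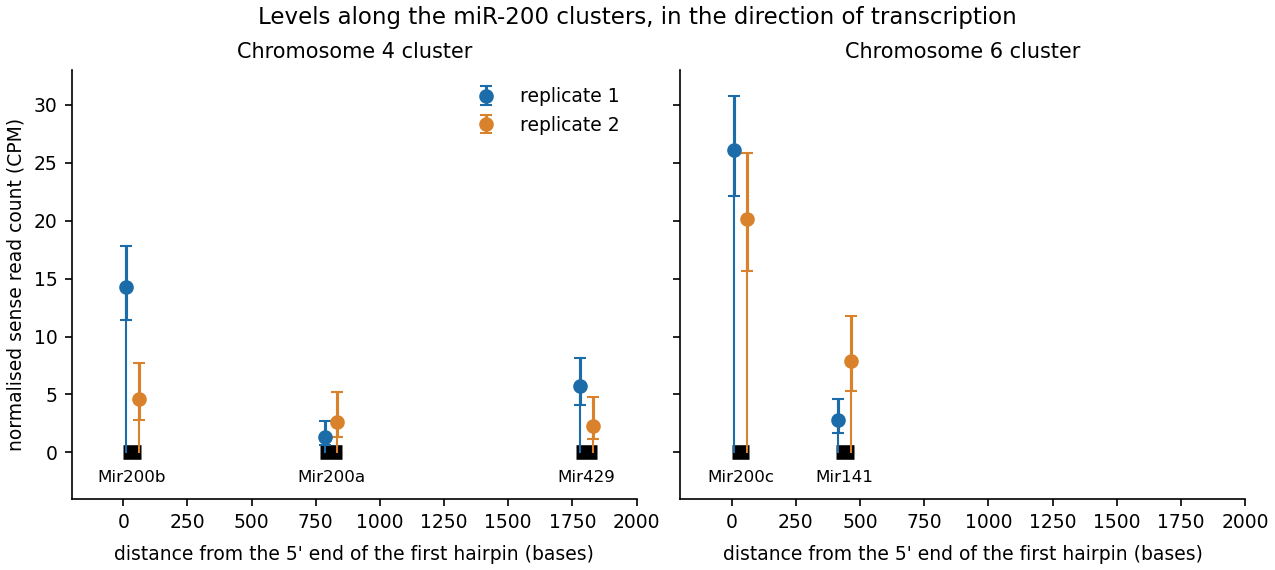
Sense CPM of the miR-200 genes in replicate 1 (blue) and replicate 2 (orange), placed by distance in bases from the 5′ end of the first hairpin of each cluster. Black bars are hairpins and error bars are 95% Wilson intervals. The blue point is the higher for Mir200b, Mir429 and Mir200c, and the orange point for Mir200a and Mir141.

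On the CPM scale the genes higher in replicate 1 were those with the seed AAUACUG, although of these the exact binomial test called Mir200b alone, and the log2 ratio of Mir200c, 0.074 after TMM scaling, turned to -0.075 with the GC trend removed. The AAUACUG genes Mir200b, Mir200c and Mir429 had 249 and 82 counts, or 46.1 CPM (40.7 to 52.2) in replicate 1, against 27.1 CPM (21.8 to 33.6) in replicate 2. The AACACUG genes Mir200a and Mir141 had 22 and 32 counts, or 4.08 CPM (2.69 to 6.17) in replicate 1, against 10.6 CPM (7.48 to 14.9) in replicate 2. The AACACUG genes thus made up 8.12% (5.42 to 12.0%) of the family's reads in replicate 1 and 28.1% (20.6 to 36.9%) in replicate 2, shares that no scaling of the libraries changes. Mir200a took 6.09% (2.98 to 12.0%) of the reads of its cluster in replicate 1 and 27.6% (14.7 to 45.7%) in replicate 2. Mir141 took 9.62% (5.91 to 15.3%) of the reads of its cluster in replicate 1 and 28.2% (19.8 to 38.6%) in replicate 2. In both clusters the intervals of the libraries did not overlap. The grouping by seed was made after the values were seen, and the counts behind these shares are small. In both libraries the AAUACUG genes had more reads than the AACACUG genes, with both arms of each hairpin counted.

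**Figure D4:**
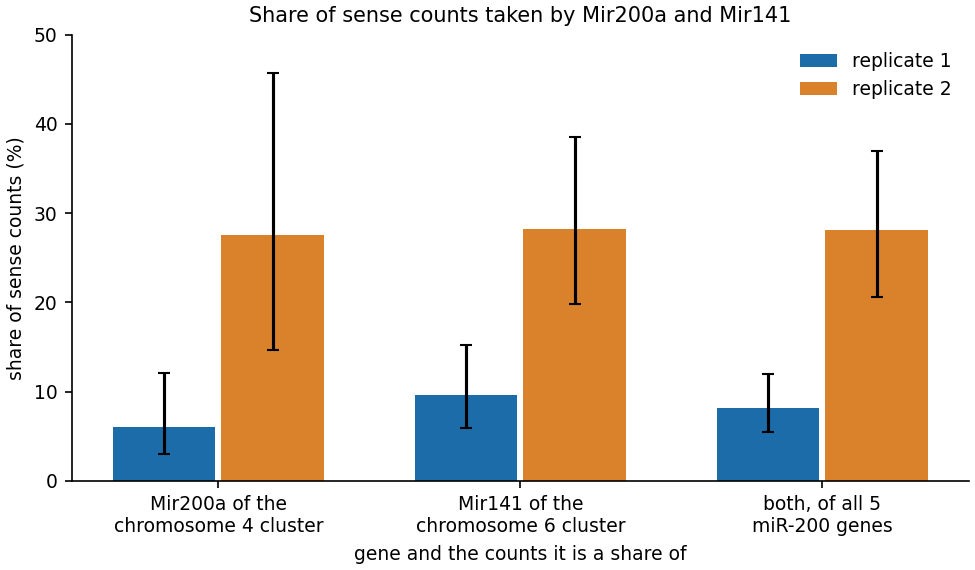
Share of sense counts (%) taken by Mir200a in the chromosome 4 cluster, by Mir141 in the chromosome 6 cluster and by both in the 5 miR-200 genes, in replicate 1 (blue) and replicate 2 (orange). Bars start at 0 and error bars are 95% Wilson intervals. Each share is under 10% in replicate 1 and between 27.6% and 28.2% in replicate 2.

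For Mir203 the log2 ratio was -2.47, or 5.54-fold higher in replicate 2 (exact interval 5.35 to 5.74). Its adjusted p in the exact binomial test was too small to be represented and was returned as 0, whereas with the pooled spread it was 0.40 (unadjusted p = 0.0069, edgeR exact test). Among the 219 genes with at least 100 counts in each library, none had a ratio further towards replicate 2, and 4, Mir203 included, had a ratio at least as large in either direction. That filter leaves out genes with low counts in replicate 1. Of these, Mir26a-1 at -3.59 (31 and 174 counts) and Mir669e at -2.79 (14 and 46 counts) lay further towards replicate 2 than Mir203. So did Mir669h at -2.62 (3 and 10 counts). The 3 genes with the nearest log2 ratios, over 2 libraries, were Mir376c at -2.38 (143 and 607 CPM), Mir145a at -2.37 (1251 and 5257 CPM) and Mir196b at -2.08 (169 and 581 CPM). Mir376c belongs to the Dlk1-Dio3 imprinted cluster, Mir145a is known from smooth muscle and Mir196b lies in a Hox cluster.

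Mir203 was the one gene of the 7 with more than 1 antisense read. Its antisense column held 444 counts in replicate 1 and 374 in replicate 2, while Mir200a had 1 antisense count, in replicate 2, and the other 5 genes had 0 in each library. Of the counts on both strands at Mir203, 9.10% (8.33 to 9.94%) were antisense in replicate 1 and 3.24% (2.93 to 3.57%) in replicate 2. No GENCODE M21 miRNA gene lies opposite Mir203, as is the case for 2138 genes in the tables. Mir203 held 818 of the 942 antisense counts of those genes, or 86.8%. The remaining ones had 73 antisense counts against 4185988 sense counts in replicate 1 (0.00174%) and 51 against 2501989 in replicate 2 (0.00204%). The next highest was Mirlet7b, with 12 and 8 antisense counts beside 370851 and 186002 sense counts. The 64 genes with a GENCODE M21 miRNA gene opposite were not in this set, and their antisense counts varied widely. Mir24-1 had 56 and 23 beside 300 and 95 sense counts, larger in proportion than at Mir203 in both libraries. Mir338 had 58 and 35 beside 1334 and 593, and Mir126a 29 and 14 beside 719007 and 209931. On the other strand Mir126b had far more antisense than sense counts, 718996 and 209928 beside 29 and 14.

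**Figure D5:**
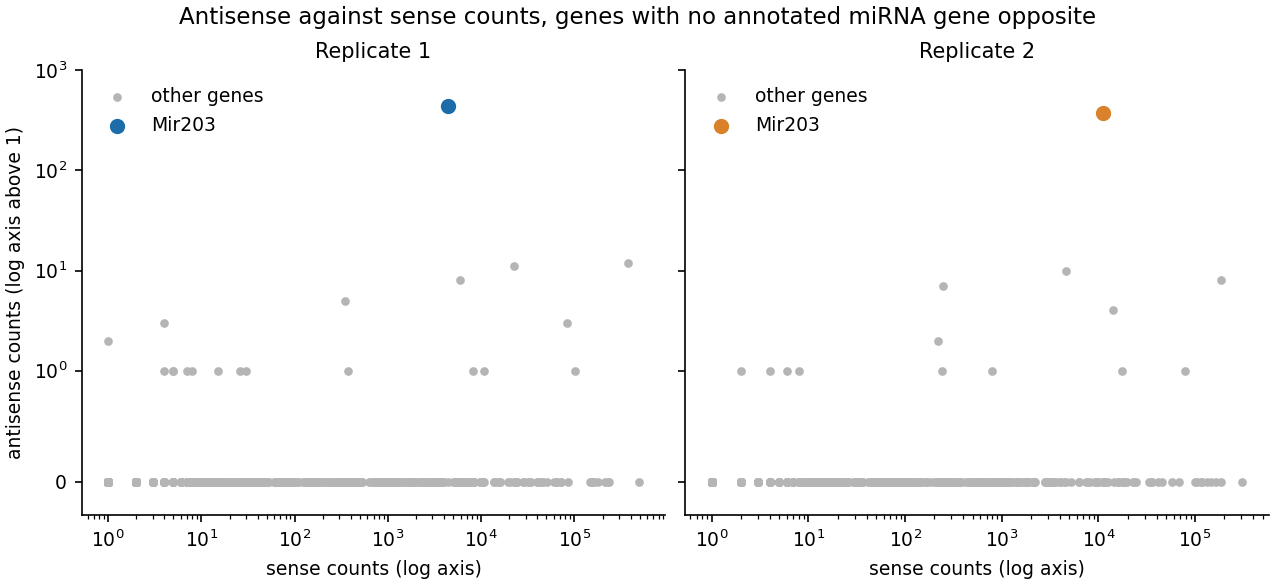
Antisense counts (log axis above 1) against sense counts (log axis) for genes with no annotated miRNA gene on the opposite strand and at least 1 sense count, in replicate 1 (left) and replicate 2 (right). Grey points are other genes. Mir203 has 444 and 374 antisense counts, and the next highest gene in each panel has 12 and 10.

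RefSeq, unlike GENCODE M21, annotates a hairpin on the other strand of Mir203, namely Gm51289 with the synonym Mir203b. The Mir203 hairpin and the arms of its antisense counterpart are shown so that the overlap can be read, with the mature arms in capitals in the hairpin and the seeds in capitals in the arms.
Mir203 hairpin: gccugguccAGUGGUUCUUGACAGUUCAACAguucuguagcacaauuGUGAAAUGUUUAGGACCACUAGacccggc
mmu-miR-203b-5p: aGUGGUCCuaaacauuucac
mmu-miR-203b-3p: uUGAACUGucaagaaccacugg
The reverse complement of miR-203b-5p shares an unbroken run of 20 bases with miR-203-3p, and that of miR-203b-3p shares 20 with miR-203-5p. None of the seeds of the antisense arms is that of miR-203-3p. The tables do not place reads within the hairpin, so which antisense arm was sequenced is not known. RefSeq has an opposite hairpin at 2 more of the 2138 genes, Mir3083 and Mir9-2, and both had 0 antisense counts in each library. Both also had almost no sense reads, with 0 and 6 counts at Mir3083 and 0 in each library at Mir9-2.

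The antisense reads did not keep a fixed proportion to the sense reads. They stood at 82.3 CPM (75.0 to 90.3) in replicate 1, against 123 CPM (112 to 137) in replicate 2, or 103 ± 29.1 CPM, relative to the sense counts of all miRNA genes. After TMM scaling they were 1.85-fold higher in replicate 2 (exact interval 1.61 to 2.13), against 5.54-fold for the sense reads. At 103 CPM the antisense reads of Mir203 exceeded the 43.9 CPM of the whole miR-200 family. Counted without strand, Mir203 had 4879 and 11558 counts, which are the sums of its sense and antisense reads.

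Markers of other epithelia were set beside these levels, and their part in the differences was not tested. Calls are those of the exact binomial test, whose background over all 434 genes was 30.2% towards replicate 1 and 28.3% towards replicate 2, and none of the genes of these lists was called against the pooled spread. Of 2 further miRNAs of squamous epithelium, Mir31 had 824 and 1011 CPM and was called higher in replicate 2, and Mir184 had 69.5 and 39.9 CPM and was called higher in replicate 1. They summed to 893 CPM in replicate 1, against 1051 CPM in replicate 2, while Mir203 had 822 and 3691 CPM. Mir205, known from basal epithelial cells, was near 0 in both libraries. The 4 genes known from kidney and gut epithelium, Mir192, Mir194-1, Mir194-2 and Mir215, summed to 136 CPM in replicate 1, against 57.4 CPM in replicate 2. Of these, 3 were tested and all 3 were called higher in replicate 1, as Mir200b was but Mir141 and Mir203 were not, led by Mir192 at 71.5 and 24.8 CPM, while Mir194-1 and Mir215 had 0 counts in replicate 2. Mir122, the marker of hepatocytes, had 1503 and 146 CPM and was called higher in replicate 1. In the smooth muscle pair Mir143 and Mir145a, both called higher in replicate 2, the sum was 30240 CPM in replicate 1, against 59237 CPM in replicate 2. All 5 white cell genes were called higher in replicate 2 (sums of 1928 and 2617 CPM), and all 3 red cell genes in replicate 1 (1210 and 576 CPM). With total counts, however, the log2 ratio of Mir342 turned to 0.037 and that of Mir155 shrank from -0.34 to -0.038. Of 9 striated muscle genes, 4 were tested and 3 called higher in replicate 2 (sums of 492 and 544 CPM), of which Mir206 shrank from -0.36 to -0.061 with total counts. The endothelial gene Mir126a, at 133209 and 69285 CPM, was called higher in replicate 1. Of 4 endocrine genes 1 was called in each direction (sums of 31668 and 25395 CPM). The numbered copies of Mir194, Mir1a, Mir133a and Mir7 in these lists have near-identical sequences elsewhere in the genome. A read that fitted more than 1 copy was left uncounted. The counts of these genes, and the kidney and gut, striated muscle and endocrine sums, are therefore uncertain.

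Other miRNA genes linked to the epithelial or mesenchymal state gave the setting of these levels. Of 12 genes on the epithelial side, 10 were detected and 11 tested, with 6 called higher in replicate 1 and 3 in replicate 2 and a median log2 ratio of 0.19, against 30.2% and 28.3% of all genes called in these directions. They were led by Mir34c, a relative of the p53 target Mir34a, at 1123 and 3278 CPM, Mir34a at 980 and 552 CPM, Mir182 at 708 and 505 CPM and Mir101b at 663 and 456 CPM. Of 15 genes on the mesenchymal side, 10 were detected and 11 tested, with 1 called higher in replicate 1 (Mir214) and 8 in replicate 2 and a median of -0.88, beside 28.3% called higher in replicate 2 and a median of 0.075 for all genes tested. None of the calls in either list was made against the pooled spread. Mir21a at 18943 and 34600 CPM and Mir10b at 15976 and 33235 CPM led this list, followed by Mir107 at 1550 and 2677 CPM and Mir214 at 1528 and 264 CPM. The list's sum was 39164 CPM in replicate 1, against 72449 CPM in replicate 2. The miR-200 family summed to 50.2 and 37.6 CPM, a ratio of 1.33 with total counts. After TMM scaling its ratio was 1.08 (0.867 to 1.36), not distinguishable from 1. A link between these sums was not tested. The epithelial side includes the 4 kidney and gut genes above. The mesenchymal side includes the white cell gene Mir155, whose log2 ratio shrank to -0.038 with total counts. Several genes of the mesenchymal list have near-identical copies elsewhere in the genome (the Mir9, Mir103 and Mir199a genes), so their counts are uncertain. The Mir194 genes on the epithelial side share this limit.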

How the data were processed

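The authors deposited 1 table of raw read counts per miRNA gene for each library, with mm10 and GENCODE M21 per the notes deposited with it; the aligner, the counter and any trimming: not given in the sources used here. The 3 unnamed columns were read as counts without strand, sense and antisense, since their sums are equal once unassigned and ambiguous reads are included. The stranded column with by far the larger gene total was taken as sense. Library sizes exclude the 4 summary lines, which name no gene and hold 61.4% and 59.8% of reads. Replicate numbers are the labels'. CPM used the sense total of miRNA genes. Ratios used TMM (edgeR 4.0.16, R 4.3.3) over genes with at least 10 counts in both libraries together, a prior of 0.5 counts, and exact two-sided binomial tests from scipy 1.17.1, adjusted after Benjamini-Hochberg by statsmodels 0.14.6, at a threshold of 0.05. For the pooled spread, edgeR estimated 1 dispersion over all genes from an intercept-only fit. The binomial test and the log2 ratio were tested on simulated counts that held set changes and counting error alone. Those counts had no further spread such as that between these libraries, and the dispersion estimate was not tested on them. Alternatives included DESeq2 1.42.0 size factors. Mature miRNA and hairpin sequences came from RefSeq.

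Named were the 7 genes, the 3 genes nearest to any of them with at least 100 counts in each library by log2 ratio, the neighbours of Mir203 in rank, genes opposite a member, and up to 4 detected genes of each list. Mir375, Mirlet7b, Mir3083, Mir9-2, Mir155, Mir342, Mir194-1, Mir215, Mir24-1, Mir338, Mir126b, Mir26a-1, Mir669e and Mir669h were named after their values were seen. Sums and shares by cluster and by seed were added after the values were seen. The members and lists were chosen with earlier results of these data known.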

Additional observations from a re-analysis of the deposited data

Results flagged for a closer look

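Antisense reads at Mir203 stand out, among genes with no GENCODE M21 miRNA gene opposite, in a column that the sense levels do not use. There were 444 in replicate 1 and 374 in replicate 2, where a count of 0 would allow up to 3. No control sample exists to set them against. Their source within the locus was not tested, since the tables give no positions of reads.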

How the results depend on the processing

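No paired analysis was possible because the 2 libraries form a single group. The log2 ratio of Mir203 ran from -2.47 to -0.89 over 13 alternatives, the smallest with its antisense in place of its sense counts (chosen after seeing the data), and it kept its side of the threshold in 12. With edgeR's common dispersion it stayed at -2.47 with an adjusted p of 0.40, and 0 of 434 genes were called. Mir200b and Mir141 kept their direction and call under all alternatives that could be computed except this test (adjusted p = 0.999 and 0.943 in edgeR's exact test). Mir200c turned to -0.075 without the GC trend. All 7 genes had at least 1 count in both libraries and 1 had at least 100. The rank of Mir203, 48 by mean CPM, was 42 without replicate 1 and 88 without replicate 2. Without Mir203 the summed level of the genes was 44.7 CPM in place of 2301 (alternative added after seeing the data). At least 100 counts over both libraries left no value for Mir200b, Mir200a, Mir429 and Mir141. Mir429 was called with total counts alone (adjusted p = 0.044 in the exact binomial test). Depth limits the low genes most, since a count of 0 allows 0.556 CPM in replicate 1 and 0.990 CPM in replicate 2.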
